A study of Mus musculus with 6 samples.

Results

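The genes described here build the MHC class I complex of the mouse: 7 heavy chains (H2-K1, H2-D1, H2-Q4, H2-Q6, H2-Q7, H2-T23 and H2-T24), the shared light chain B2m, the peptide transporter subunit Tap1 and the loading chaperone Tapbp. They were chosen by gene name as the class I presentation genes of the deposited count table, 10 of its 54532 genes, and all 10 had enough reads to be tested. RNA was sequenced from Kupffer cells, the macrophages that line the liver's sinusoids. The cells were sorted from male wild-type mice (WT, 3 libraries) and from their littermates lacking Trem2 (Trem2_KO, 3 libraries). Mice of both genotypes were 8 weeks old when a high fat diet began and stayed on it for 8 weeks, so there is no group on normal diet. Trem2 encodes a macrophage receptor for lipids and lipoproteins. The deleted part of the gene, the origin of the allele and whether each library came from its own mouse were not given in the sources used here. The p-values therefore measure only the spread among these libraries, which could be technical.

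MHC class I molecules show fragments of the proteins a cell makes to CD8 T cells and natural killer cells. Peptides are cut by the proteasome, pumped into the endoplasmic reticulum by the transporter Tap1/Tap2, and fitted by tapasin (Tapbp) and its partner chaperones into a heavy chain bound to B2m. Nearly every nucleated cell carries the complex, and interferons raise its genes through IRF factors that bind the promoters, beside NF-kappaB and the NLRC5-dependent factors.

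Libraries held 15799351 to 17135603 counted reads, and 13776 genes were tested. Levels are CPM (reads of a gene scaled to library size, with TMM factors) unless FPKM is named, and a call is an adjusted p under 0.05 in edgeR's quasi-likelihood test over all tested genes. Trem2 measured 84.8, 90.08 and 84.31 CPM in the WT libraries against 16.65, 17.36 and 14.47 CPM in Trem2_KO, a log2 change of -2.42 (SE 0.0641, adjusted p = 1.68e-35). The Kupffer markers summed to 53165 to 54945 CPM in WT and 46470 to 47755 CPM in Trem2_KO, with 0 of 14 called higher and 12 lower. Sinusoidal endothelial markers summed to 2109 to 2127 CPM in WT and 2083 to 2098 CPM in Trem2_KO (13 of 16 called higher, 2 lower, median log2 change 0.44). Hepatocyte markers summed to 1576 to 1645 CPM in WT and 1380 to 1425 CPM in Trem2_KO (1 of 11 higher, 6 lower). T and NK cell markers summed to at most 4.73 CPM in any library, with 0 of 2 tested called. Monocyte markers summed to 527 to 543 CPM in WT and 488 to 512 CPM in Trem2_KO, with 4 of 9 called higher and 2 lower (median 0.35). The 2 lower were Plac8 and Treml4. Treml4 lies 0.071 Mb from Trem2, averaged 437 CPM in WT and 386 CPM in Trem2_KO, and made up most of the sum. Among the 4 higher, named after their values were seen, Ccr2 averaged 6.22 and 17.04 CPM and Cx3cr1 5.52 and 15.15 CPM. B and plasma cell markers summed to 119 to 122 CPM in WT and 93.1 to 104 CPM in Trem2_KO (0 of 8 higher, 3 lower). Dendritic cell markers (1 of 8 higher, 2 lower) and neutrophil markers (1 of 5 higher, 1 lower, and the defining marker Ly6g at 0) summed to at most 117 and 210 CPM. For comparison, 15.3% of all tested genes were called higher and 15.1% lower. The part of these cell types in the results below was not tested.

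The promoters are shown first because the heavy chains of the K, D and Q regions share the upstream motif GAANNGAAA. B2m, H2-T23, Tap1 and Tapbp lack that motif and hold others of those searched. Each stretch is read 5′ to 3′ on the strand of its gene from the RefSeq promoter table of GRCm38.p6, and capitals mark matches on either strand to the motifs searched (GAANNGAAA and GAAANNGAA, cores of IRF-type elements that can overlap each other, the NF-kappaB-type palindrome core GGGATTCCC, the CREB-type TGACG and the CCAAT box). The stretches are chr2:122147527-122147666 (+) for B2m, chr17:34000348-34000477 (-) for H2-K1, chr17:35379424-35379557 (+) for H2-Q4, chr17:35424658-35424791 (+) for H2-Q6 and chr17:35439002-35439135 (+) for H2-Q7.
B2m: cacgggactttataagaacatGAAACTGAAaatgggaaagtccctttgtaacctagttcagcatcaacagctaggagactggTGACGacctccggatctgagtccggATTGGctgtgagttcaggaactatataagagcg
H2-K1: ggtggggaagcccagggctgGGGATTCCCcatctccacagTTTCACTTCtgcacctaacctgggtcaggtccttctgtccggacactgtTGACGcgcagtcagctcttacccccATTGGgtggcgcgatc
H2-Q4: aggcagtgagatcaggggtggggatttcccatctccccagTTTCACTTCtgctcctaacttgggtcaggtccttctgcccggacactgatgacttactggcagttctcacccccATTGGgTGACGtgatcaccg
H2-Q6: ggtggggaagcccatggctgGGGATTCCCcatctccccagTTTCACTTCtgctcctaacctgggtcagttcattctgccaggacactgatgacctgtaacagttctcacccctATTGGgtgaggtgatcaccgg
H2-Q7: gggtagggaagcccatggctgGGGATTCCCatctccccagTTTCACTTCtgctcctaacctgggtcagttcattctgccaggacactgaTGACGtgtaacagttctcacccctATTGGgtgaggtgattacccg

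Of the 10 genes, 9 had an entry in that table and H2-T24 had none. Within the 250 bases before the start, GAANNGAAA was found in H2-K1, H2-D1, H2-Q4, H2-Q6 and H2-Q7 and in 6.31% of all 32851 promoters. GAAANNGAA was found in B2m and H2-T23 and in 7.13% of promoters. GGGATTCCC was found in H2-K1, H2-D1, H2-Q6 and H2-Q7 and in 0.301% of promoters (99 in all). TGACG (17.8% of promoters) was found in B2m, H2-K1, H2-D1, H2-Q4, H2-Q7 and Tap1, and CCAAT (33.8%) in all 9. H2-T23 held GAAANNGAA and CCAAT alone, Tap1 TGACG and CCAAT, and Tapbp CCAAT alone. A match is a description of the letters and not a binding site.

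In Trem2-deficient Kupffer cells most of the class I genes were modestly lower, and 1 was much higher. H2-K1, H2-D1, H2-Q4, H2-Q6, H2-T23, B2m, Tap1 and Tapbp were called lower (8 of 10, against 15.1% of all tested genes). Of these, Tapbp changed least and fell by 10.3%, and H2-T23 changed most and fell by 34.5%. H2-T24 was called higher (1 of 10, against 15.3% of all tested genes), and H2-Q7 was not called. The libraries of the 2 genotypes did not overlap for 9 of the 10 genes, against 41.6% of all tested genes. The median log2 change of the 10 genes was -0.20, against -0.01 over all tested genes. With the spread between libraries set to a coefficient of variation of 0.2 in place of the 0.0378 measured, 0 of the 10 were called lower and H2-T24 still higher. In sorted bulk cells, fewer cells of a type and less RNA per cell cannot be told apart.

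**Figure D1:**
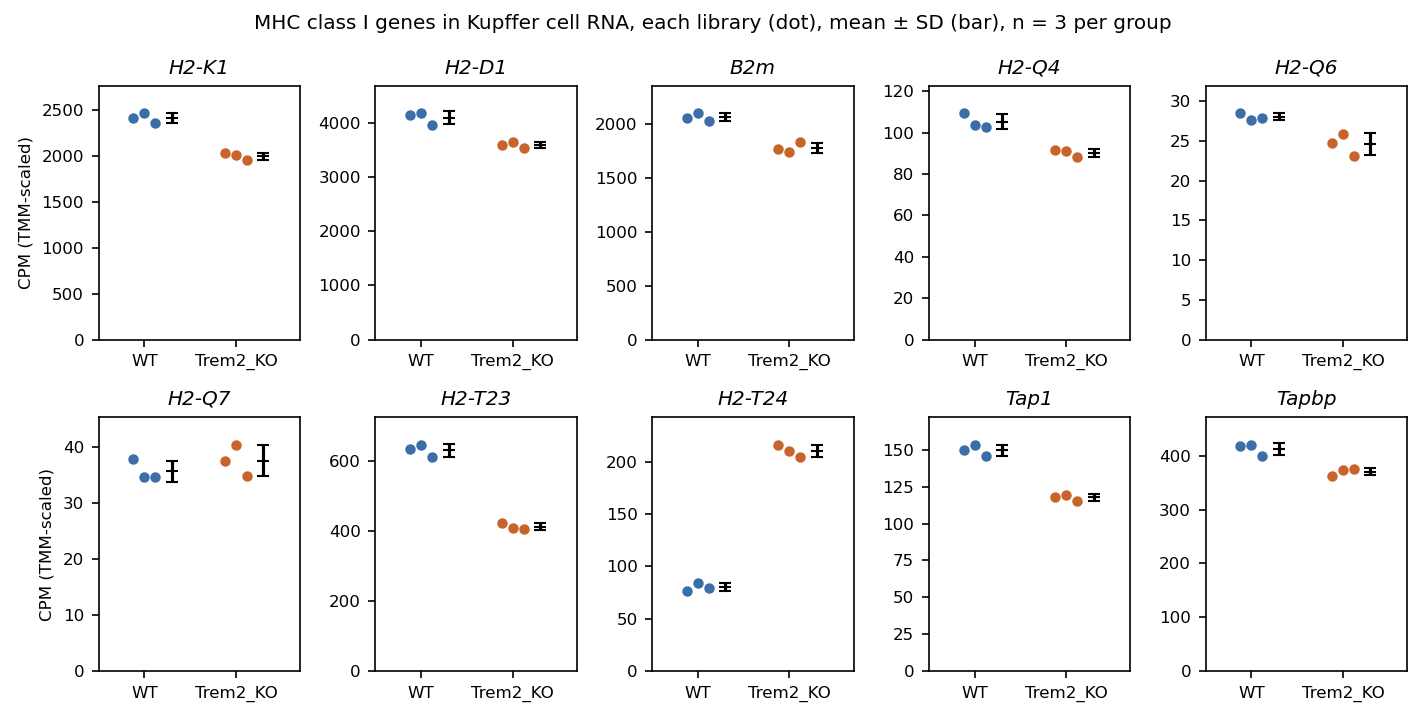
TMM-scaled CPM of the 10 class I genes in each of the 6 libraries, 1 panel per gene with its own axis from 0; points are libraries and black marks the group mean with its SD (n = 3 per group). Every Trem2_KO library lies below every WT library for 8 genes and above for H2-T24, and the groups overlap for H2-Q7.

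B2m is the light chain that every class I heavy chain needs to fold and reach the surface (ENSMUSG00000060802, chr2:122147686-122153083 on the + strand of GRCm38). It measured 2057, 2099 and 2030 CPM in the WT libraries and 1764, 1736 and 1830 CPM in the Trem2_KO libraries. All 3 Trem2_KO libraries lay below all 3 WT libraries, and the level fell by 13.8% (log2 change -0.21, SE 0.0242, adjusted p = 2.40e-10).

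The classical heavy chains H2-K1 and H2-D1 present peptides to CD8 T cells. H2-K1 (ENSMUSG00000061232, chr17:33996017-34000333, - strand) measured 2413, 2467 and 2359 CPM in WT and 2028, 2007 and 1953 CPM in Trem2_KO. Its groups did not overlap, and it fell by 17.3% (log2 change -0.27, SE 0.0237, adjusted p = 5.99e-14). H2-D1 (ENSMUSG00000073411, chr17:35262730-35267499, + strand) measured 4149, 4187 and 3971 CPM in WT and 3599, 3646 and 3545 CPM in Trem2_KO. Again every Trem2_KO library was below every WT library, and the level fell by 12.3% (log2 change -0.19, SE 0.0228, adjusted p = 1.53e-09). By reads, H2-D1 was the most abundant of the 10 genes in both genotypes.

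The Q region genes are heavy chains of lower level, and H2-Q7 encodes the nonclassical molecule Qa-2. H2-Q4 (ENSMUSG00000035929, chr17:35379617-35385290, + strand) measured 109.5, 104 and 102.7 CPM in WT and 91.8, 91.16 and 88.02 CPM in Trem2_KO, with no overlap (log2 change -0.22, SE 0.0433, adjusted p = 5.17e-05). H2-Q6 (ENSMUSG00000073409, chr17:35424850-35430055, + strand) measured 28.48, 27.68 and 27.93 CPM in WT and 24.74, 25.86 and 23.12 CPM in Trem2_KO. Its log2 change of -0.19 (SE 0.0735) was called at an adjusted p of 0.0432 that sits close to the threshold. The call was lost without any 1 of the 3 WT libraries or Trem2_KO replicate 1 or 3 (adjusted p 0.0687 to 0.191), and with DESeq2 (adjusted p = 0.129). H2-Q7 (ENSMUSG00000060550, chr17:35439155-35443773, + strand) measured 37.93, 34.65 and 34.65 CPM in WT and 37.63, 40.48 and 34.83 CPM in Trem2_KO. These groups overlap, and the log2 difference of 0.07 (95% interval -0.0541 to 0.203, adjusted p = 0.428) was not called. H2-Q6 and H2-Q7 are neighbours that share sequence, and with their reads added together the log2 difference was -0.04 (adjusted p = 0.659).

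H2-T23 encodes the heavy chain of Qa-1, which shows leader peptides of other class I chains to the CD94/NKG2 receptors of natural killer cells. H2-T23 (ENSMUSG00000067212, chr17:36029773-36032855, - strand) measured 632.8, 645.3 and 609 CPM in WT and 422.4, 408.1 and 405.5 CPM in Trem2_KO. The groups were far apart relative to their spread, and the level fell by 34.5% (log2 change -0.61, SE 0.0286, adjusted p = 1.71e-24), the largest fall among the 10 genes. Its neighbour H2-T24 (ENSMUSG00000053835, chr17:36005695-36020560, - strand), another class I heavy chain of the T region, went the other way. H2-T24 measured 76.82, 84.52 and 79.52 CPM in WT and 216.4, 210.4 and 204.5 CPM in Trem2_KO. Each Trem2_KO library was above every WT library, a 2.62-fold higher level (log2 change 1.39, SE 0.0402, adjusted p = 9.83e-34).

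Tap1 is a subunit of the transporter that brings peptides into the endoplasmic reticulum, and Tapbp encodes tapasin, which holds the empty class I molecule next to it. Tap1 (ENSMUSG00000037321, chr17:34187553-34197225, + strand) measured 149.8, 153.5 and 145.7 CPM in WT and 118.2, 119.7 and 115.4 CPM in Trem2_KO, and fell by 21.3% (log2 change -0.35, SE 0.0385, adjusted p = 1.82e-10). Tapbp (ENSMUSG00000024308, chr17:33915899-33929288, + strand) measured 418.5, 420.8 and 400.3 CPM in WT and 363.3, 373.7 and 375.2 CPM in Trem2_KO, and fell by 10.3% (log2 change -0.16, SE 0.0296, adjusted p = 3.11e-05), the smallest of the called changes. Neither pair of groups overlapped. The strand setting of the counting was not given in the sources used here. Tapbp overlaps Zbtb22 on the same strand by 3421 bases (38214 reads of Tapbp against 3379 of Zbtb22 over the 6 libraries) and Tap1 overlaps Psmb9 on the other strand by 212 bases.

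Compared per length, B2m stood first in both genotypes, at 2387 ± 41.4 FPKM in WT and 2053 ± 56.3 FPKM in Trem2_KO (SD, n = 3 each). H2-D1 followed at 1583 ± 45.7 and 1386 ± 19.4 FPKM, and H2-K1 at 921 ± 21 and 760.6 ± 14.4 FPKM. Lower came H2-T23 at 217 ± 6.51 and 142 ± 3.04 FPKM and Tapbp at 125 ± 3.5 and 112 ± 2.02 FPKM. These 5 levels kept their order. H2-T24 changed place: at 36.6 ± 1.77 FPKM it was below H2-Q4 (40.4 ± 1.42 FPKM) in WT, and at 95.85 ± 2.67 FPKM it was above H2-Q4 (34.6 ± 0.76 FPKM) in Trem2_KO. Tap1 measured 27.2 ± 0.728 and 21.4 ± 0.388 FPKM, H2-Q6 13.4 ± 0.204 and 11.7 ± 0.654 FPKM, and H2-Q7 8.34 ± 0.45 and 8.77 ± 0.659 FPKM. No 2 neighbours in this order overlapped between their libraries within a genotype.

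B2m lies on chromosome 2, while the other 9 genes lie on chromosome 17, 12.3 to 14.4 Mb from Trem2 itself (chr17:48346401-48354147). A log2 ratio of each gene to B2m within the same library does not depend on scaling. For H2-T23 it was -1.70, -1.70 and -1.74 in WT and -2.06, -2.09 and -2.17 in Trem2_KO, a mean difference of -0.40. For H2-T24 it was -4.74, -4.63 and -4.67 in WT and -3.03, -3.04 and -3.16 in Trem2_KO, a difference of 1.61. Of the other ratios, the difference was 0.29 for H2-Q7, 0.06 for Tapbp, -0.13 for Tap1 and -0.06 for H2-K1, none overlapping between genotypes. Without Trem2_KO replicate 3 the difference of H2-K1 was -0.0214, and without Trem2_KO replicate 2 that of Tapbp was 0.0366. All 6 reached an exact two-sided permutation p of 0.1, the smallest that 3 against 3 libraries allow (0.15 after adjustment over the 9 ratios), so none could pass 0.05. The ratios of H2-D1 (difference 0.03, exact permutation p = 0.5), H2-Q4 (-0.01, exact permutation p = 0.9) and H2-Q6 (0.02, exact permutation p = 0.8) overlapped between genotypes. H2-D1, H2-Q4 and H2-Q6 thus stood lower by about as much as B2m, and the ratios of H2-T23 and H2-T24 moved farthest from it.

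**Figure D2:**
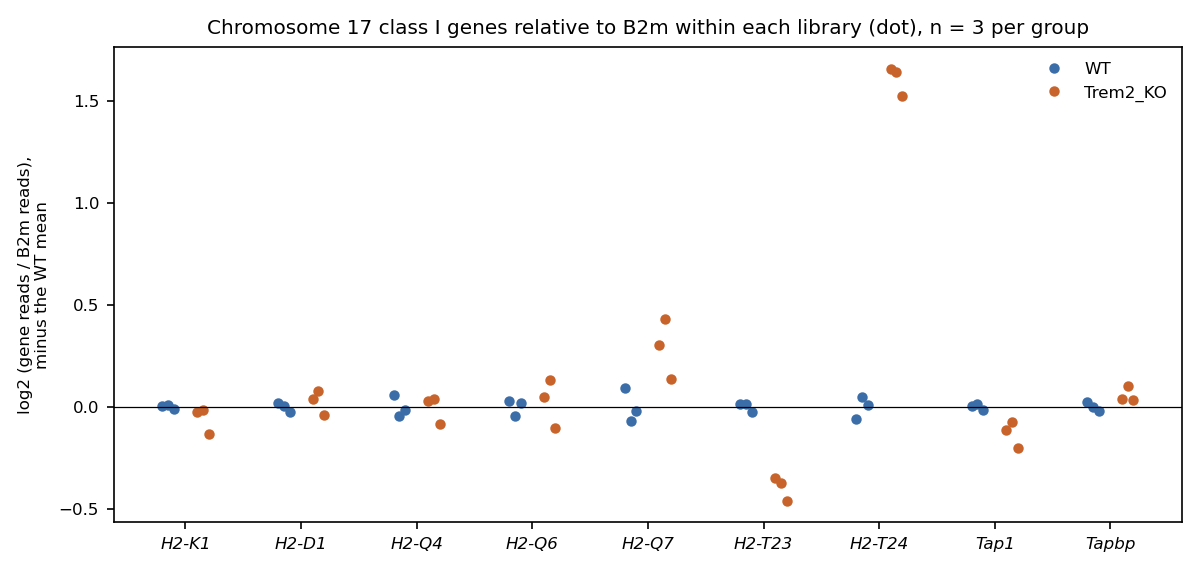
Log2 ratio of each chromosome 17 class I gene to B2m in the same library, shown as the difference from the WT mean of that gene; points are libraries (n = 3 per group). The Trem2_KO libraries of H2-T24 lie about 1.61 above and those of H2-T23 about 0.40 below the WT libraries, and those of H2-D1, H2-Q4 and H2-Q6 mix with WT.

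Between the outermost of the 9 genes, chr17:33915899-36032855, lie 87 other tested genes that belong to none of the lists used here. Of these, 8 were called higher and 23 lower, 35.6% against 30.4% of all tested genes, with a median log2 change of -0.10. Lower calls made up 26.4% of these neighbours, against 14.9% of the 13078 tested genes on the other chromosomes. DESeq2 called 20 of the 87 in place of 31, and 3096 genes in all in place of 4182. Trem2 lies on the same chromosome, so the loss of Trem2 and any difference in linked sequence between the genotypes cannot be told apart.

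The T region beyond H2-T23 held further contrasts. H2-T22 and H2-T10, nonclassical chains recognised by some gamma-delta T cells, start 9.89 kb and 88.6 kb from H2-T23 and went opposite ways. H2-T22 had 1453, 1381 and 1367 reads in WT and 945, 933 and 1023 reads in Trem2_KO (log2 change -0.65, SE 0.0497, adjusted p = 8.44e-16). H2-T10, annotated as a polymorphic pseudogene, had 129, 95 and 140 reads in WT and 498, 470 and 423 reads in Trem2_KO (log2 change 1.82, SE 0.106, adjusted p = 1.93e-19). Neither gene's groups overlapped. The following 6 features were chosen after their values were seen. The pseudogene Gm8810 had 0 reads in all 3 WT libraries and 38, 27 and 34 reads in Trem2_KO, and was called higher (adjusted p = 5.37e-11). Gm9574 had 2, 15 and 7 reads in WT and 0 in all 3 Trem2_KO libraries, too few to be tested. The pseudogene H2-T-ps had 54, 58 and 67 reads in WT and 83, 96 and 117 in Trem2_KO (log2 change 0.61, adjusted p = 0.00473), while Gm10074 (log2 change -0.90, adjusted p = 0.0202) and Rpp21 (-0.39, adjusted p = 0.0141) were called lower. Trim39, beyond them, was not called (log2 difference 0.03).

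**Figure D3:**
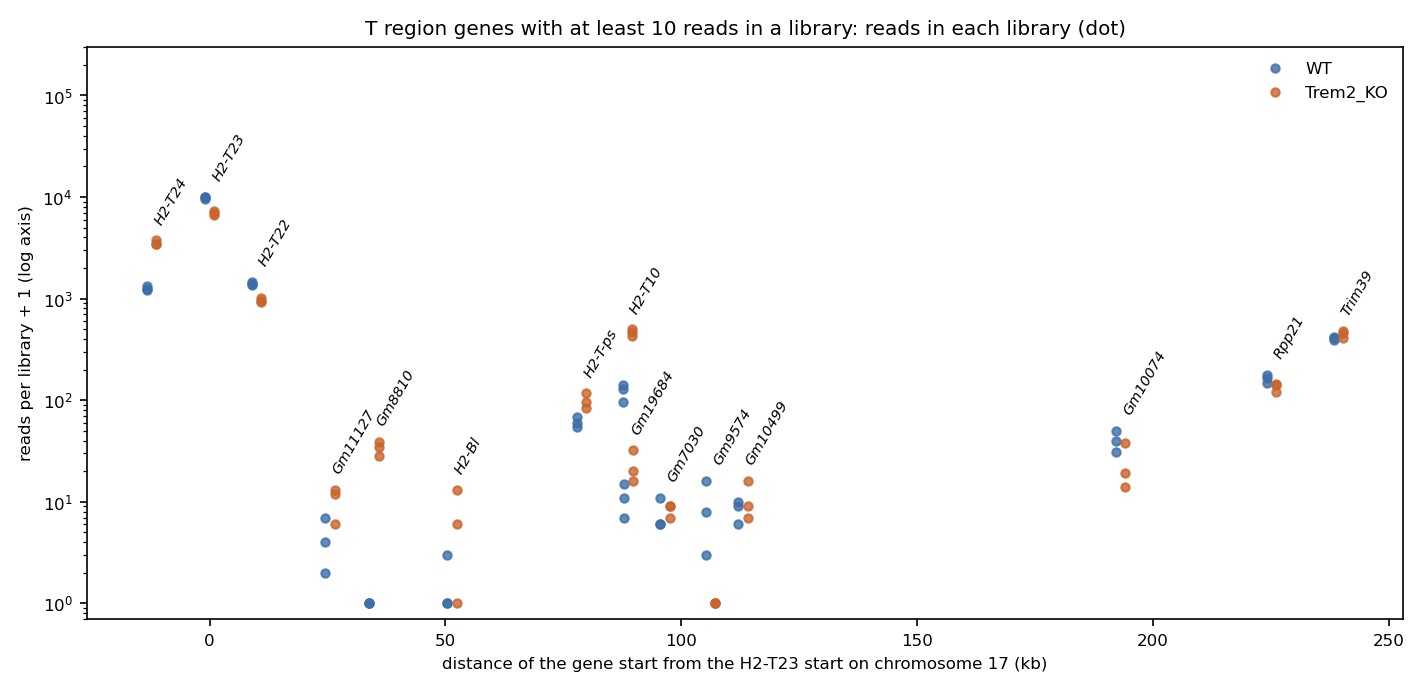
Reads per library plus 1 on a log axis for T region genes with at least 10 reads in a library, by the distance in kb of the gene's start from that of H2-T23; points are single libraries (blue WT, orange Trem2_KO, n = 3 per group). The Trem2_KO points of H2-T24, Gm8810 and H2-T10 lie above the WT points, and those of H2-T23, H2-T22 and Gm9574 below.

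Near-identical copies can exchange reads. In the GENCODE M21 transcripts, 3.17% of the 50-base windows of H2-T24 and none of its 100-base windows occur in any other gene, and 19 of its 2178 windows of 50 bases (0.87%) occur in H2-T23. Of H2-T23's windows, 14.49% at 50 bases and 3.15% at 100 bases occur elsewhere. H2-T10 and H2-T22 overlap more: 31.7% of the 50-base windows of H2-T10 occur in H2-T22, and 50.37% occur in some other gene. B2m shared no window of either length, H2-K1 and H2-D1 shared 9.63% and 12.77% at 50 bases, and H2-Q4, H2-Q6 and H2-Q7 shared 36.39%, 34.97% and 26.45%. Of H2-Q7's windows of 50 bases, 14.03% occur in H2-Q10, 8.74% in H2-Q5 and 6.31% in H2-Q6. The sum of H2-Q6 with H2-Q7 therefore leaves out larger partners of H2-Q7. H2-Q10, called higher, shared 19.06% in all. Of the T region pseudogenes named above, H2-T-ps shared 29.37% of its 50-base windows, 17.98% with H2-T23. Gm8810 shared 10.21% at 50 bases, 8.23% with Gm9574, which changed the opposite way, and 0 of its 100-base windows. Tapbp shared 23.18% at 50 bases and 14.78% at 100 bases, most of it with Gm19412 (20.28% and 14.71%). Gm19412 overlaps Tapbp on the other strand and had 0 reads in the 6 libraries, so most of this is overlap at 1 locus and not a copy. Of H2-Q4's windows, 15.34% at 50 bases and 11.8% at 100 bases occur in Gm11131. That gene overlaps H2-Q4 on the other strand by 676 bases and had 270 reads, so part of this sharing is also overlap at 1 locus. Of H2-T22's 100-base windows, 24.01% occur in A930015D03Rik (6 reads in the 6 libraries) and 6.92% in H2-T10. By 50-base windows shared with other genes, the levels of H2-Q6, H2-Q7, H2-T10 and H2-T22 are among the least certain. Summing H2-T23 with H2-T24 gave a log2 change of -0.19, and summing H2-T22 with H2-T10 gave -0.20, so in both pairs the read total was lower in Trem2_KO. In WT, H2-T23 had 9910, 10093 and 9527 reads against 1203, 1322 and 1244 for H2-T24. H2-T22 likewise had more reads than H2-T10. Each sum mostly follows its larger gene and cannot test whether the smaller gene rose. How the authors' counting treated reads that match several genes, and the read length, were not given in the sources used here.

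**Figure D4:**
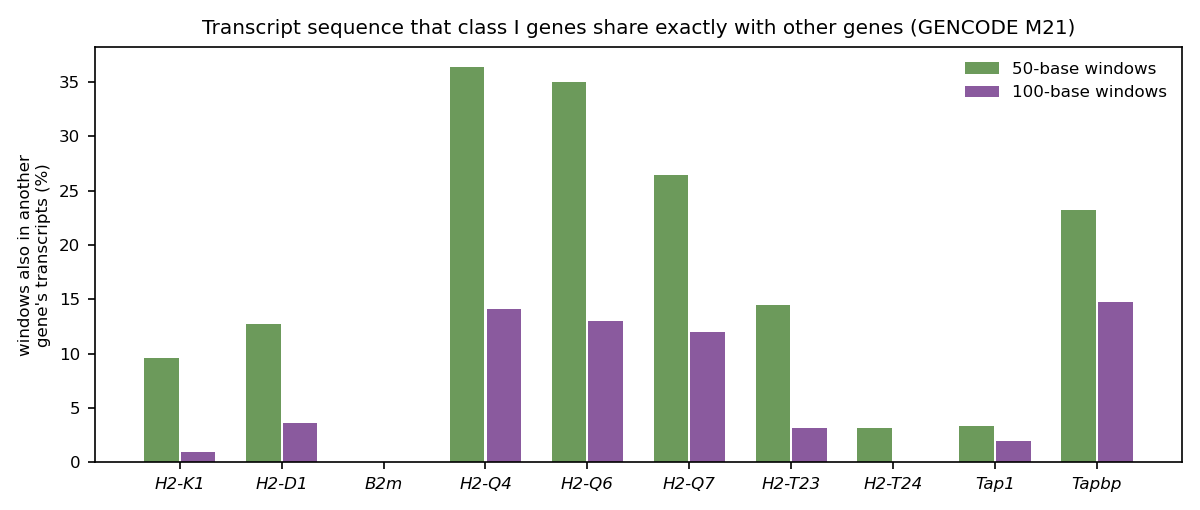
Percent of the 50-base and 100-base windows of each gene's GENCODE M21 transcripts that occur exactly, on either strand, in a transcript of another gene. Bars start at 0: B2m has none, H2-T24 has 3.17% at 50 bases, and of the 10 genes shown H2-Q4 has the most at 50 bases (36.39%) and Tapbp at 100 bases (14.78%).

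Among 75 tested genes of 10 further lists around the class I pathway, 12 were called higher (16% against 15.3% of all tested genes) and 24 lower (32% against 15.1%). The higher share is near the background. The 6 tested class I-b heavy chains outside the 10 genes split evenly (2 higher, 2 lower, median log2 change 0.11). Besides H2-T10 and H2-T22, H2-M3, which presents N-formylated peptides, fell from 93.6 to 57.5 CPM on average (log2 change -0.70, SE 0.0503, adjusted p = 6.05e-17). H2-Q10, a secreted chain typical of hepatocytes, rose from 24.5 to 39.1 CPM (log2 change 0.67, SE 0.0725, adjusted p = 6.31e-11), beside hepatocyte markers of which 6 of 11 were called lower.

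The partners of Tap1 and Tapbp in the endoplasmic reticulum were lower where they were called: 4 of 8 fell and 0 rose (median -0.14). This list and those that follow are small, and of all tested genes 15.1% were called lower and 15.3% higher. Tap2, the other subunit of the transporter, had a log2 change of -0.25 (adjusted p = 7.39e-05). Pdia3, the disulfide isomerase joined to tapasin, had -0.19, and the lectin chaperones Canx and Calr had -0.18 and -0.14. The immunoproteasome is the proteasome form that favours class I peptides. Of 6 genes of the immunoproteasome and its activator, 4 fell and 0 rose (median -0.34). The immunoproteasome subunits Psmb8, Psmb9 and Psmb10 had log2 changes of -0.40, -0.37 and -0.31, and the activator subunit Psme1 -0.27. Of the 3 constitutive counterparts of the immunoproteasome subunits, 2 fell as well, Psmb7 by 0.29 and Psmb5 by 0.23 on the log2 scale. The peptide trimming list gave 1 higher and 2 lower of 7, few genes to set against the 15.3% and 15.1% of all tested genes, with the aminopeptidase Lnpep at a log2 change of 0.27, Blmh at -0.33 and Lap3 at -0.23.

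**Figure D5:**
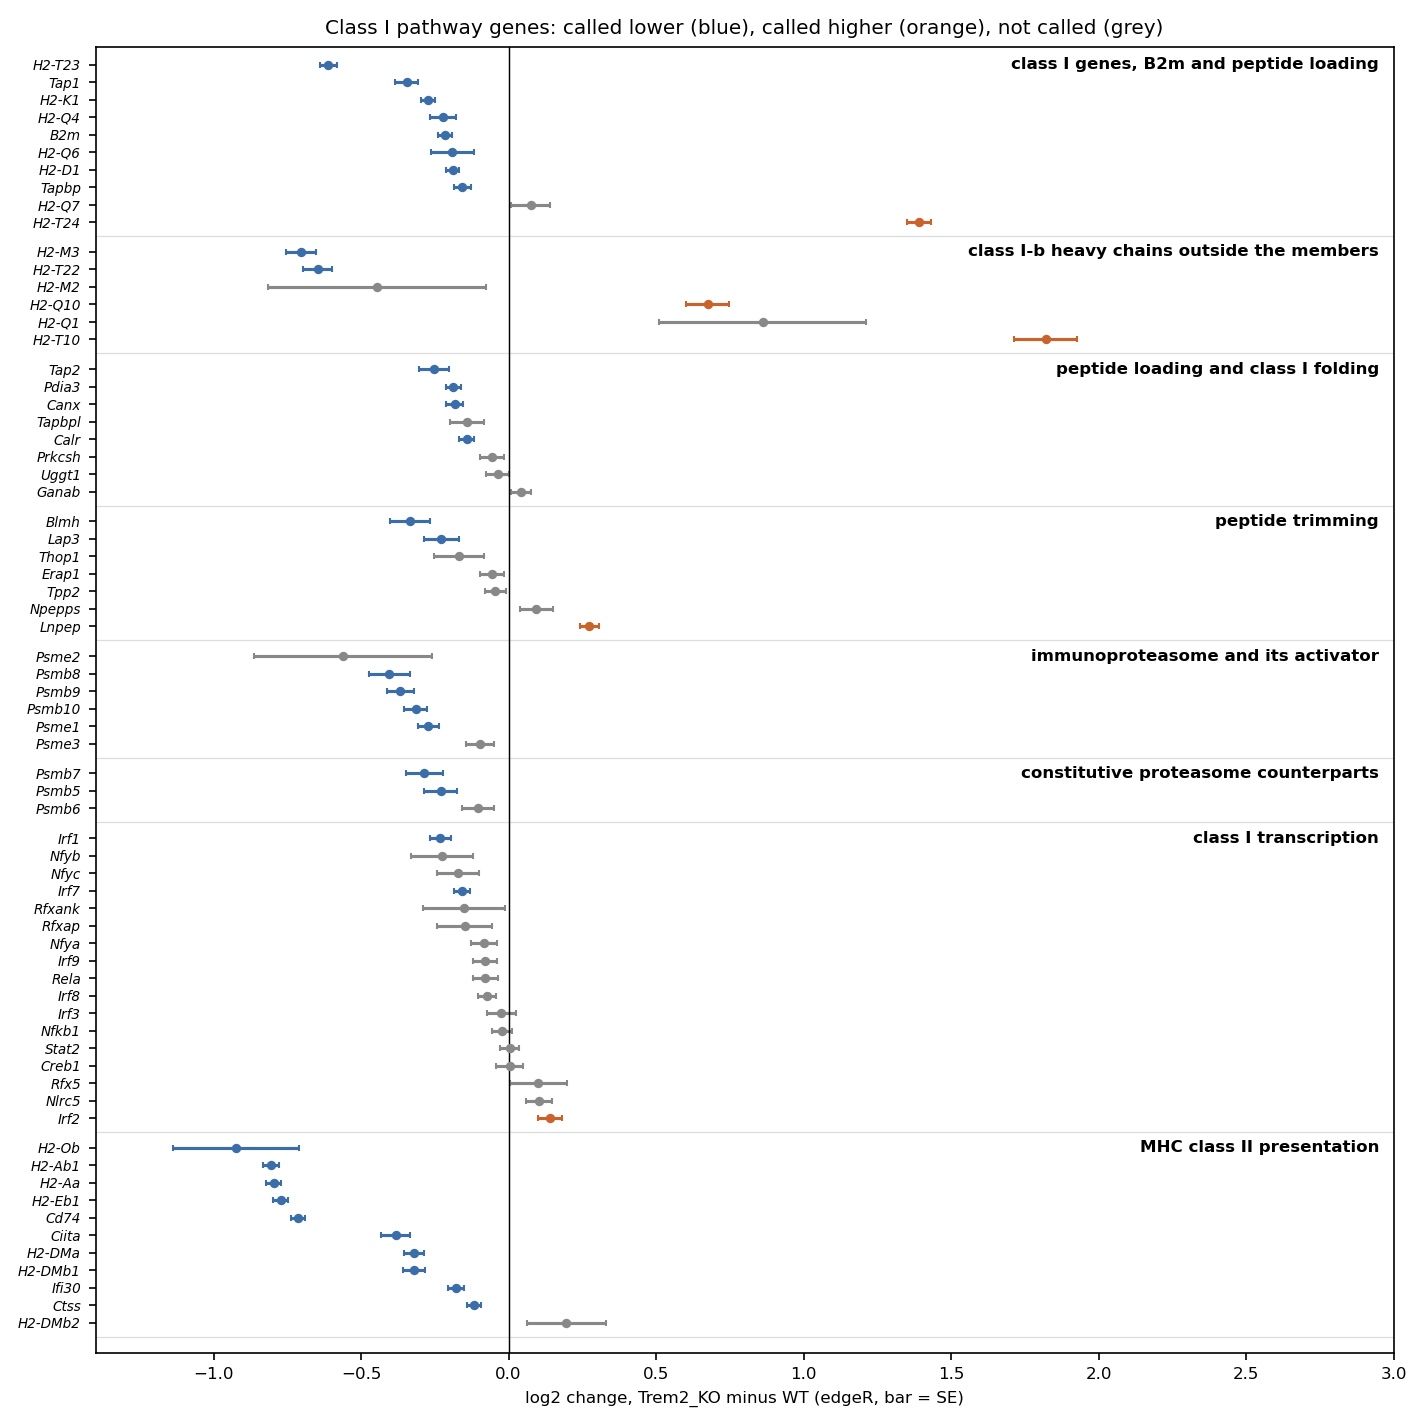
Log2 change (Trem2_KO against WT) of genes of the class I lists, 1 row per gene grouped by list, with bars for the SE; blue marks genes called lower, orange higher, and grey not called. Most genes of the list of the immunoproteasome and its activator and of the MHC class II list are blue (list medians -0.34 and -0.38). The class I-b list spreads from H2-M3 at -0.70 to H2-T10 at 1.82.

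Of the 18 tested transcription factors and regulators of class I genes, 3 were called lower, 1 higher and 14 were not called (median -0.08). The lower share is near the 15.1% of all tested genes and the higher share below the 15.3%. Among those called lower, the interferon regulatory factors Irf1 and Irf7 had log2 changes of -0.23 (adjusted p = 6.11e-07) and -0.16. Irf2 was called higher (0.14, adjusted p = 0.00486) but not without Trem2_KO replicate 2 (adjusted p = 0.0573). Nlrc5, the class I transactivator, was named after its value was seen: it measured 84.3 CPM in WT and 90.5 CPM in Trem2_KO (log2 difference 0.10, adjusted p = 0.0804) and was not called. Of 8 interferon receptors and kinases, Ifnar2 was called lower (log2 change -0.15) and Jak2, Tyk2 and Jak1 higher (0.15, 0.12 and 0.08). These are few genes to set against the 15.1% and 15.3% of all tested genes. The call of Jak2 was lost without Trem2_KO replicate 2 (adjusted p = 0.0847). That of Tyk2 was lost without WT replicate 2 or Trem2_KO replicate 2 or 3 (0.069 to 0.0838), with limma on log2 FPKM (0.0728 with either pseudocount) and without the filter on low counts (0.0512). That of Jak1 was lost without WT replicate 1 or 2 or Trem2_KO replicate 2 or 3 (0.0523 to 0.202), with DESeq2 (0.0506), with limma on log2 FPKM (0.0976 and 0.1) and without the filter (0.132).

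MHC class II genes, which present peptides to CD4 T cells and of which many sit in the same stretch of chromosome 17, are given for comparison. Of 11 tested, 10 fell and 0 rose, against 15.1% and 15.3% of all tested genes, with a median log2 change of -0.38. H2-Ab1 had -0.81, H2-Aa -0.80 and H2-Eb1 -0.77, each a larger fall than that of H2-T23 (-0.61). H2-Ob had -0.92 (SE 0.213) at a low level, on average 4.45 CPM in WT and 2.34 CPM in Trem2_KO. The interval of H2-Ob, -1.34 to -0.51, includes the value of H2-T23, so its fall cannot be ranked against that of H2-T23. The difference between the class I and class II falls was not tested.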

How the data were processed

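The deposited counts are whole reads per gene without normalization. The deposited FPKM values divide them by gene length and library size. Per the submitters' processing notes, the tools include featureCounts 1.5.0-p3, HISAT2 2.0.5 and DESeq2 1.16.1, and the builds GRCm38 and mm10. Strand setting and treatment of multiply matching reads were not given in the sources used here. Groups and replicate numbers came from the sample titles, and coordinates from the deposited table.

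The test was edgeR 4.0.16 under R 4.3.3 (filterByExpr, TMM, robust quasi-likelihood, genotype alone in the design) over 13776 genes, which held over 99% of each library's counts, with Benjamini-Hochberg adjustment. The tests ran on simulated data first. SE values come from the quasi-likelihood statistic, and CPM is TMM-scaled. A count of 3, the limit that a count of 0 allows, is 0.175 to 0.19 CPM per library and covers counting error only. Alternatives used limma 3.58.1 and DESeq2 1.42.0, and log2 FPKM with pseudocounts of 1 and 0.1.

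The 10 genes and the lists were chosen with earlier results of these data known. Named are the 10 genes, Trem2 and, per list, up to 4 called genes whose libraries do not overlap, by size of change. A gene that this rule selects is not reported here. Genes outside the rule are marked. The H2-Q8, H2-Q9 and H2-T9 loci were not analysed here. Same-numbered libraries of the 2 genotypes were checked for pairing (closing section).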

Additional observations from a re-analysis of the deposited data

How the results depend on the processing

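Of the 10 class I genes, B2m, H2-K1, H2-D1, H2-Q4, H2-T23, Tap1 and Tapbp kept their lower call in 15 of the 16 alternatives that add no genes together, and H2-T24 its higher call in 16 of 16, while H2-Q7 was called in 0 of 16. The common coefficient of variation between libraries was only 0.0378. With it fixed at 0.2, as a wider biological spread would give, edgeR called 371 genes in place of 4182, 0 of the 10 class I genes lower and H2-T24 still higher, 5 lower and 1 higher of the 86 genes of the pathway lists with MHC class II (in place of 34 and 12), and 1 of the 87 neighbours. DESeq2 called 3096 genes and 20 of the neighbours. With total counts in place of TMM, 2517 genes were higher and 1588 lower, against 2103 and 2079, the median of all genes was 0.03 and H2-Q6 was not called (adjusted p = 0.0959). Adding near-identical copies together gave a log2 change of H2-Q7 with H2-Q6 of -0.0360. Adding the T region pairs, chosen after seeing the data, left 0 of the 10 genes higher. The sums changed by -0.19 for H2-T24 with H2-T23 and -0.20 for H2-T10 with H2-T22. H2-T23 and H2-T22 hold most reads of their pairs, so these sums cannot test the higher levels of H2-T24 and H2-T10. Set against all tested genes off chromosome 17 in place of B2m, the log2 ratios of H2-D1, H2-Q6 and Tapbp turned to -0.16, -0.16 and -0.13 (exact permutation p = 0.1 each), since B2m itself was lower. Leaving out 1 library gave 3377 to 3909 called genes, B2m ratios of -0.000554 to 0.0578 for H2-D1, -0.0297 to 0.0337 for H2-Q4 and -0.0301 to 0.0886 for H2-Q6, and log2 differences of -0.47 to 0.0226 for the T cell marker Lck and -0.57 to 0.0731 for Lat. The replicate numbers showed no clear pairing of the libraries (correlation of same-numbered deviations -0.00787, 0.00313 and 0.0361), though 3 libraries per group cannot exclude it. A fit with the replicate block called 4230 genes and changed no call of the 10. H2-Q6, near 25 CPM, had an SE of 0.0735, against 0.0228 for H2-D1. The cause of these shifts was not tested where none is named.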

Other observations

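Among 8 tested class I-like molecules outside peptide presentation, 1 was called higher and 2 lower, few genes to set against the 15.3% and 15.1% of all tested genes. Fcgrt, the neonatal Fc receptor that recycles IgG with B2m as its light chain, had a log2 change of -0.36, and Cd1d1, which presents lipids to NKT cells, -0.15. Procr, the endothelial protein C receptor, was called higher at 0.18 (adjusted p = 0.0405), and this call was lost without WT replicate 2 or 3 or Trem2_KO replicate 3 (adjusted p 0.108 to 0.295), with DESeq2 (0.122), limma-voom (0.0586) and limma on log2 FPKM (0.104 and 0.101), and without the filter on low counts (0.0838). Among 4 tested leukocyte receptors of the paired-Ig and Lilr families, 2 were called higher and 1 lower. These too are few genes to set against the 15.3% and 15.1% of all tested genes. Pira2, an activating receptor, had -0.84 and the Lilr genes Lilrb4a and Lilr4b 0.26 and 0.25. The inhibitory receptor Pirb, named after its value was seen, was not called (log2 difference 0.02, adjusted p = 0.658). Of 7 cross-presentation genes, 2 were called higher and 3 lower, again few genes to set against the 15.3% and 15.1% of all tested genes. Among them were Wdfy4 at 0.16, Lgmn at -0.14, Sec22b at -0.20 and Sec61a1 at -0.10. The call of Sec22b was lost without WT replicate 2 or Trem2_KO replicate 2 (adjusted p 0.0744 and 0.0981) and with limma on log2 FPKM (0.0597 and 0.058). That of Sec61a1 was lost without WT replicate 1 or 3 or Trem2_KO replicate 1 (0.0761 to 0.186), with DESeq2 (0.0773), total counts (0.141) and limma on log2 FPKM (0.0814 and 0.0823).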
